A study of Mus musculus with 6 samples.

Results

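Chemokine ligands are small secreted or membrane-bound proteins that steer the movement of leukocytes and other cells, and their genes were compared here between WT and GαqKO mouse embryonic fibroblasts (MEFs). The members were the protein-coding genes whose symbol is Ccl, Cxcl, Cx3cl or Xcl followed by a number and at most 1 letter in the GENCODE mouse annotation. They made up 41 of the 56953 genes in the deposited table, with 26 Ccl, 13 Cxcl, 1 Cx3cl and 1 Xcl gene. The data were bulk RNA sequencing of 6 libraries, 3 labelled WT and 3 labelled GαqKO, from untreated MEFs grown in serum-containing medium. The study's methods describe the GαqKO cells as Gαq/11 knockout MEFs, so that both α subunits, encoded by Gnaq and Gna11, are meant to be missing, and they name 1 source laboratory for both cell lines. Gene models lie on GRCm39, and every value is a normalized count, that is, the reads assigned to a gene divided by a size factor for the library. Summed normalized counts lay between 11392429 and 11483486 per library. The reads recovered from the table numbered 9853000 to 12229175 in the 5 libraries used for this, which left out GαqKO replicate 3.

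The labels were set against the targeted genes and against cell type markers. Gna11 fell from 2140.6, 2179.9 and 2123.2 in the WT libraries to 472.3, 463.7 and 418.9 in those labelled GαqKO, whereas Gnaq stood at 1665.5, 1660.2 and 1746.6 against 1959.7, 1930.9 and 1888.2 (log2 fold change 0.19, limma adjusted p = 0.00212). Gnaq transcript counts were thus not lower in the libraries labelled GαqKO. Gene counts do not show whether these transcripts encode Gαq protein. The paper reports from Western blot and immunofluorescence that the protein is missing in GαqKO MEFs. All 8 fibroblast markers examined passed the filter, but Pdgfra (21.9, 17.5 and 19.3 in WT, 2328.8, 2356.4 and 2273.9 in GαqKO), Dcn and Thy1 were low in WT and higher in GαqKO, while Col1a1 was lower. Vim was the highest of them, at 44614.0, 40957.2 and 39783.7 in WT and 33489.3, 34245.5 and 32787.9 in GαqKO. The summed fibroblast markers ranged from 81485.0 to 87334.8 in WT and from 60160.1 to 63259.0 in GαqKO. The 6 epithelial markers summed to 515.0 to 540.9 in WT and 10.1 to 23.1 in GαqKO, through Krt14 (261.0, 253.5 and 259.6 against 0, 2.3 and 1.0) and Cdh1 (241.2, 235.1 and 238.2 against 8.5, 10.4 and 5.0), while Krt5 never exceeded 1.0. Macrophage and leukocyte markers summed to 144.1 to 159.3 and 97.7 to 122.6 over 8 genes, of which 3 were tested and 1, Cd68, was lower by limma adjusted p (0.0296, log2 fold change -0.48). Cd68, a lysosomal protein, made up most of the sum at 84.6, 103.9 and 90.6 against 54.5, 79.8 and 66.5, followed by Fcer1g (38.6, 38.9 and 30.5 against 27.2, 18.5 and 27.2) and Csf1r (8.1 to 20.4). Ptprc was at 3.1 or less, and Tyrobp and Itgam were listed at 0 in all 6 libraries, Itgam with 99.1% of its exon bases in the spans of other genes. The 5 endothelial markers stayed at 13.6 or less in every library, a value reached by Pecam1. The part of these marker differences in the chemokine results was not tested, and in bulk RNA fewer cells of a type cannot be told apart from less RNA per cell. With 1 cell line per genotype, a difference between genotypes likewise cannot be told apart from a difference between lines, and p-values measure only the spread between these libraries.

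As background, chemokines bind receptors that signal through heterotrimeric G proteins, mainly of the Gαi family, and they are held on the matrix and cell surface by glycosaminoglycans. Homeostatic ligands such as Cxcl12 position cells in resting tissue, whereas inflammatory ligands are induced in fibroblasts by cytokines such as IL-1 and TNF through NF-κB. Most of the inflammatory genes arose by tandem duplication and sit in clusters. The ELR-bearing CXC ligands, among them Cxcl1, Cxcl2, Cxcl3 and Cxcl5, recruit neutrophils through Cxcr2, and many CC ligands recruit monocytes and T cells.

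Promoter windows of 5 members are shown because these genes moved in different directions or by different amounts and because the letters bound by NF-κB, AP-1 and TATA-binding protein are the ones most often examined in this family. They cover 250 bases before and 50 after the annotated start, are taken from RefSeq on build GRCm38.p6, and run 5′ to 3′ on the strand of the gene. Capitals mark every match on either strand to a kappa B motif (GGGNNTTTCC), an interferon-stimulated response element (ISRE, TTTCNNTTTC), an AP-1 motif (TGANTCA) or a TATA motif (TATAAA). The windows are chr5:90890995-90891294 (plus strand) for Cxcl1, chr11:83578587-83578886 (minus strand) for Ccl9, chr8:94771930-94772229 (plus strand) for Cx3cl1, chr13:119623569-119623868 (plus strand) for Ccl28 and chr6:117168285-117168584 (plus strand) for Cxcl12.
Cxcl1: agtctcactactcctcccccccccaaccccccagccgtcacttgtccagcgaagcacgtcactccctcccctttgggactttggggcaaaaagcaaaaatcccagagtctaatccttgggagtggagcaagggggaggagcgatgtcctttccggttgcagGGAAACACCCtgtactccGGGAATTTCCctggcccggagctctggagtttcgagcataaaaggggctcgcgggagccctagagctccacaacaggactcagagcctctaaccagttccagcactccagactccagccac
Ccl9: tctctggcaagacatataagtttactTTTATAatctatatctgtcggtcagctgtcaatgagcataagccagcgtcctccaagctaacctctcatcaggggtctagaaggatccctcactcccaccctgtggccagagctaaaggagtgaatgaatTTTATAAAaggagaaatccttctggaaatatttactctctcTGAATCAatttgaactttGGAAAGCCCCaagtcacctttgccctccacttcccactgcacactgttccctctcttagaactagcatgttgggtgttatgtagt
Cx3cl1: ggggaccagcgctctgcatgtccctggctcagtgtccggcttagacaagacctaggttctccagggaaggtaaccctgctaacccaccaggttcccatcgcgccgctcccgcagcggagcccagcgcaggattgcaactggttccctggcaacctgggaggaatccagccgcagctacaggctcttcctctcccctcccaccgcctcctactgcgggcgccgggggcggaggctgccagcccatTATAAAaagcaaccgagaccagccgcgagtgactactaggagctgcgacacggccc
Ccl28: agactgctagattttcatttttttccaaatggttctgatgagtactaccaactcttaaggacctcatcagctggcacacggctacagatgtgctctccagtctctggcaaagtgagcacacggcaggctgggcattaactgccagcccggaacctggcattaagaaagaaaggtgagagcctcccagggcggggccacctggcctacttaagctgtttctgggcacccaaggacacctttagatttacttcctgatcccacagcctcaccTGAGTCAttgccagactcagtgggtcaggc
Cxcl12: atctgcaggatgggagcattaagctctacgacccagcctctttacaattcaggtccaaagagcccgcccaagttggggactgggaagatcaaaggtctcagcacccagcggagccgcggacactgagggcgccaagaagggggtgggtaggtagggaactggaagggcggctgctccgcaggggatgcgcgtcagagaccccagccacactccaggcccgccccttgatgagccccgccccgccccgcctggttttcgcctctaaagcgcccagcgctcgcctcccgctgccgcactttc

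The Cxcl1 window held a pair of kappa B matches whose first bases lay 71 and 89 bases before the start. The Ccl9 window held a kappa B match 35 bases before the start, an AP-1 match 53 bases before it and TATA matches 92, 94 and 224 bases before it, of which those at 92 and 94 overlap. Cx3cl1 had a TATA match 6 bases before the start, Ccl28 had an AP-1 match 20 bases after it, and the Cxcl12 window held none of the 4 motifs. Promoter entries were matched for 28 of the 41 members, with 34 windows in all. Ccl11, Ccl2, Ccl21e, Ccl21f, Ccl24, Ccl26, Ccl4, Ccl5, Ccl7, Cxcl11, Cxcl16, Cxcl17 and Cxcl5 were the 13 not matched. The kappa B motif stood in 14.7% of the members' windows (Ccl20, Ccl9, Cxcl1, Cxcl2 and Cxcl3) and in 1.63% of all 32851 promoter windows. The AP-1 motif stood in 20.6% and 7.81%, the ISRE in 8.82% and 3.44%, and the TATA motif in 29.4% and 13.6%. Of the 5 genes with a kappa B match, Cxcl1 and Ccl9 passed the filter against low values, and Ccl20, Cxcl2 and Cxcl3 did not. Such a match was thus found both in expressed members and in members with few reads. A match is a match of letters only, and related genes share sequence.

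Of the 41 members, 11 had a normalized count of 10 or more in 3 or more libraries and were tested, 12 lay below this filter with at least 1 library above 0, and 18 were listed at 0 in all 6 libraries. The filter was passed by 26.8% of the members and 54.5% of all protein-coding genes of the table, and 43.9% and 21.0%, respectively, were listed at 0. A total of 7 of the 11 were called higher in GαqKO (Ccl28, Cxcl5, Ccl5, Ccl9, Cxcl16, Cx3cl1 and Ccl25), 3 were called lower (Ccl27a, Ccl7 and Cxcl12), and Cxcl1 passed the adjusted p alone. A call required a limma adjusted p under 0.05 and a log2 fold change beyond 1 in either direction. The same rule called 10.2% of the 14096 tested genes higher, 10.5% lower and 20.7% in either direction. Ccl28, Cxcl5 and Ccl5 passed the filter only through the GαqKO libraries and Ccl27a only through the WT libraries, so these 4 had to differ. Among the 7 members with at least 10 normalized counts in every library, 6 were called, 4 of them higher and 2 lower. Of the 12054 genes that met this stricter filter, 13.2% were called, 6.89% higher and 6.35% lower. In all 11 tested members the WT and GαqKO libraries did not overlap, as was the case for 69.6% of all tested genes.

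**Figure D1:**
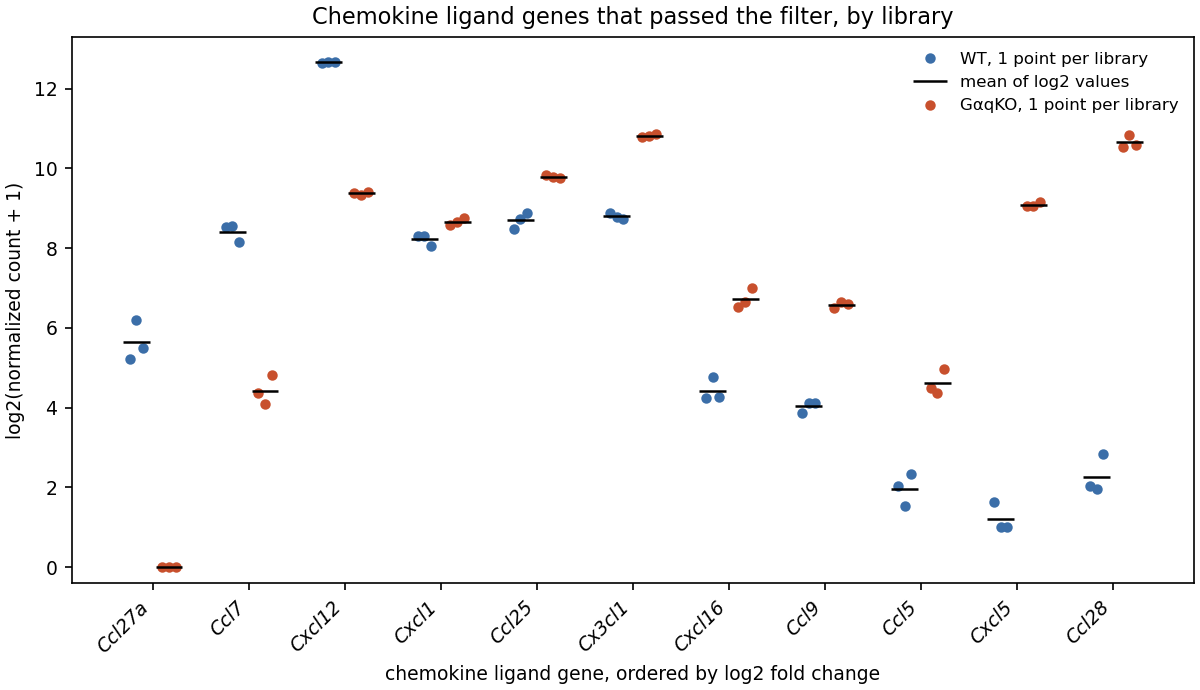
Log2(normalized count + 1) of the 11 chemokine ligand genes that passed the filter, ordered from the most negative to the most positive log2 fold change, with 1 point for each of the 3 WT (blue) and 3 GαqKO (orange) libraries and a black line at the mean of each group. The groups do not overlap for any of the 11 genes, with Ccl27a, Ccl7 and Cxcl12 lower in GαqKO and the other 8 higher. They do not overlap for 69.6% of all tested genes either. Ccl28, Cxcl5, Ccl5 and Ccl27a passed the filter through a single group and had to differ.

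Among the homeostatic ligands, Cxcl12, the ligand of Cxcr4 and Ackr3 that retains blood progenitors in the bone marrow, was the highest member in WT MEFs per kb of sequence. It measured 6446.8, 6452.2 and 6502.0 in the WT libraries and 671.4, 648.7 and 677.7 in the GαqKO libraries. The libraries of each group lay close together and the groups were far apart. Cxcl12 (ENSMUSG00000061353.12, chr6:117144945-117158328) was 9.71-fold lower in GαqKO, from 6467.0 ± 30.4 to 665.9 ± 15.3 (SD, n = 3 each), with a log2 fold change of -3.28 (SE 0.0423, limma adjusted p = 2.45e-15). Its exons overlap no other gene.

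Ccl25, a ligand of Ccr9 made in thymus and small intestine, moved the other way. Its normalized counts were 355.0, 425.5 and 473.3 in WT and 913.7, 874.1 and 870.1 in GαqKO, so that the lowest GαqKO library stood well above the highest WT library. Ccl25 (ENSMUSG00000023235.15, chr8:4374661-4540760) was 2.12-fold higher (417.9 ± 59.5 against 886.0 ± 24.1, SD, n = 3), with a log2 fold change of 1.09 (SE 0.0885, limma adjusted p = 1.08e-07). This was the member closest to the fold threshold, and without WT replicate 1 its log2 fold change was 0.98, under the threshold. In the gene model used here 6.6% of its exon bases lie in the span of Elavl1, which held 3331.0, 3210.6 and 3004.7 normalized counts in WT and 3630.3, 3680.3 and 3584.0 in GαqKO.

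Ccl28 and Ccl27a are epithelial ligands that share the receptor Ccr10, Ccl28 in mucosa and Ccl27a in skin, and they changed in opposite directions. Ccl28 (ENSMUSG00000074715.4, chr13:120085355-120115895) had 3.1, 2.9 and 6.1 normalized counts in WT and 1493.0, 1819.9 and 1547.8 in GαqKO. The WT values correspond to 3, 3 and 6 reads, so the gene was near the limit of counting in WT and readily counted in GαqKO. The 12 WT reads against 3164 in GαqKO replicates 1 and 2 gave a ratio of 406 (exact 95% interval 232 to 786, counting error only), and limma gave a log2 fold change of 8.38 (SE 0.213, adjusted p = 9.3e-13). Ccl28 passed the filter only through the GαqKO libraries, so it had to differ. Ccl27a (ENSMUSG00000073888.14, chr4:41769467-41774639) had 36.5, 72.9 and 43.8 normalized counts in WT and was listed at 0 in all 3 GαqKO libraries. Set against a floor of 3 normalized counts per library, it was at least 17.0-fold lower in GαqKO, a log2 bound of 4.09 in size. Ccl27a passed the filter only through the WT libraries and had to differ, and its limma log2 fold change was -5.64 (SE 0.445, limma adjusted p = 8.19e-08). With GαqKO at 0 this estimate depended on the pseudocount, at -6.63 with 0.5 and -3.43 with 5. The Ccl27a value is also uncertain because the region holds near-identical copies, among them Ccl27b, which was listed at 0 throughout. The neighbouring Il11ra1, whose span covers 0.7% of the Ccl27a exon bases, stood at 55.3, 40.8 and 58.0 in WT and 21.6, 13.9 and 24.2 in GαqKO. The epithelial markers Krt14 and Cdh1 were lower in GαqKO as well, in the direction of Ccl27a and against that of Ccl28, and their part in these differences was not tested.

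The neutrophil-attracting ligands Cxcl1 and Cxcl5 lie in the same cluster on chromosome 5. Cxcl5 (ENSMUSG00000029371.8, chr5:90907186-90909483) had 2.1, 1.0 and 1.0 normalized counts in WT, equal to 2, 1 and 1 reads, and 533.4, 534.2 and 567.0 in GαqKO. It was thus barely counted in WT and nearly constant across the GαqKO libraries. The 4 WT reads against 1030 in GαqKO replicates 1 and 2 gave a ratio of 396 (exact 95% interval 154 to 1460, counting error only), with a limma log2 fold change of 7.89 (SE 0.244, adjusted p = 5.7e-12). Cxcl5 passed the filter only through the GαqKO libraries, so it had to differ. Cxcl1 (ENSMUSG00000029380.12, chr5:91039094-91040974) was present in both groups, with 313.3, 314.7 and 266.7 normalized counts in WT and 384.1, 401.2 and 430.0 in GαqKO. Its difference was 1.36-fold (298.2 ± 27.3 against 405.1 ± 23.2, SD, n = 3), with a log2 fold change of 0.44 (SE 0.0882, limma adjusted p = 0.000554), larger than the spread between libraries and under the fold threshold. The other ELR ligands of the cluster stayed under the filter. Cxcl2 was above 0 only in GαqKO replicate 3, at 1.0, Cxcl3 only in WT replicate 2 and GαqKO replicate 3, at 1.9 and 4.0, and Cxcl15 only in WT replicate 2 and GαqKO replicate 1, at 1.9 and 0.9.

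Among the CC ligands of monocytes and T cells, Ccl7 fell and Ccl9 and Ccl5 rose. Ccl7, a monocyte attractant that binds Ccr2, had 367.6, 377.9 and 284.0 normalized counts in WT and 19.7, 16.2 and 27.2 in GαqKO. WT replicate 3 was the lowest of its group and still far above every GαqKO library. Ccl7 (ENSMUSG00000035373.3, chr11:81936532-81938351) was 16.3-fold lower (343.1 ± 51.5 against 21.0 ± 5.6, SD, n = 3), with a log2 fold change of -3.98 (SE 0.198, limma adjusted p = 6.51e-10). Ccl9 (ENSMUSG00000019122.9, chr11:83463745-83473161), a ligand of Ccr1, had 13.6, 16.5 and 16.3 normalized counts in WT and 89.2, 99.4 and 96.7 in GαqKO, 6.15-fold higher (log2 fold change 2.55, SE 0.211, limma adjusted p = 1.34e-07). Ccl5 (ENSMUSG00000035042.3, chr11:83416602-83425942), which attracts T cells, was low in both groups at 3.1, 1.9 and 4.1 against 21.6, 19.7 and 30.2. Its 9 WT reads against 40 in GαqKO replicates 1 and 2 gave a ratio of 6.84 (exact 95% interval 3.27 to 16.0, counting error only), with a log2 fold change of 2.63 (SE 0.398, limma adjusted p = 5.26e-05). Ccl5 too passed the filter only through the GαqKO libraries, so it had to differ. The 8 leukocyte markers summed to 144.1 to 159.3 in WT and 97.7 to 122.6 in GαqKO, with Cd68, Fcer1g and Csf1r counted in every library, and their part in these differences was not tested.

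Cx3cl1 and Cxcl16 are the ligands made as transmembrane proteins and released by proteases, and both rose. Cx3cl1 (ENSMUSG00000031778.14, chr8:95498637-95509055), also called fractalkine, had 472.0, 440.1 and 423.4 normalized counts in WT and 1778.5, 1785.2 and 1871.1 in GαqKO. The GαqKO libraries lay close together, far above those of WT. The change was 4.07-fold (445.2 ± 24.7 against 1811.6 ± 51.6, SD, n = 3), with a log2 fold change of 2.02 (SE 0.0573, limma adjusted p = 2.52e-12). Cxcl16 (ENSMUSG00000018920.12, chr11:70344517-70352620), the ligand of Cxcr6 and a scavenger receptor for oxidized lipoprotein, had 17.8, 26.2 and 18.3 normalized counts in WT and 91.1, 99.4 and 127.9 in GαqKO, 5.11-fold higher (log2 fold change 2.31, SE 0.226, limma adjusted p = 7.57e-07). In the gene models used here 89.3% of the Cxcl16 exon bases lie in the spans of Med11 (388.4, 331.3 and 275.8 in WT, 454.5, 499.5 and 490.4 in GαqKO) and Zmynd15 (8.4, 4.9 and 1.0 against 51.6, 34.7 and 42.3). The strand setting of the counting was not given in the sources used here, so reads from these overlapping genes cannot be told apart.

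Levels of different genes were compared only per kb of sequence, and their order depended on the length used. All 11 tested members had a newer version in the annotation used here than in the deposited table, so both the summed exon length of the gene and the length of its canonical transcript were applied, the latter after the lengths had been seen. Ccl25 shows the extent of this, with 12537 bases of exon in the gene model and 902 in the canonical transcript. Under both lengths Cxcl12 ranked first in WT, at 774.9 ± 3.6 normalized counts per kb of exon or 1140.8 ± 5.4 per kb of transcript. Per kb of exon, the WT order continued with Ccl7 (425.2), Cxcl1 (158.5), Cx3cl1 (112.1), Ccl25 (33.3), Ccl27a (18.9), Ccl9 (5.0), Cxcl16 (4.1), Ccl5 (3.0), Ccl28 (0.8) and Cxcl5 (0.7). The neighbouring pairs Ccl9 and Cxcl16, Cxcl16 and Ccl5, and Ccl28 and Cxcl5 overlapped between libraries. In GαqKO the order per kb of exon was Cx3cl1 (456.3), Ccl28 (326.4), Cxcl5 (287.4), Cxcl1 (215.4), Cxcl12 (79.8), Ccl25 (70.7), Ccl9 (30.6), Ccl7 (26.1), Ccl5 (23.2), Cxcl16 (20.7) and Ccl27a, listed at 0. There Ccl9 and Ccl7, Ccl7 and Ccl5, and Ccl5 and Cxcl16 overlapped. Per kb of transcript, Ccl25 stood in second place in WT (463.3 ± 66.0), where it overlapped Ccl7 (425.2 ± 63.8), and in first place in GαqKO (982.2 ± 26.7), ahead of Cx3cl1 (546.5 ± 15.6).

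The make-up of the ligand signal differed between the groups under either length. Of the summed level of all 41 members per kb of exon, Cxcl12 made up 48.6%, 47.5% and 53.2% in the WT libraries and 5.4%, 4.9% and 5.1% in the GαqKO libraries. Ccl7 went from 28.7%, 28.7% and 24.0% to 1.6%, 1.3% and 2.1%, whereas Cx3cl1 went from 7.5%, 6.8% and 7.3% to 29.8%, 28.6% and 29.4%. Per kb of exon, Cxcl12 and Ccl7 thus made up most of the WT signal and little of the GαqKO signal. Ccl28 and Cxcl5 were at 0.1% or less in every WT library and at 19.4% to 23.3% and 17.9% to 18.7% in GαqKO. The summed level per kb of exon was 1588.0, 1628.9 and 1464.8 in WT and 1501.9, 1571.3 and 1604.9 in GαqKO, and the groups overlapped. Per kb of transcript the sum was 2539.9, 2679.0 and 2519.0 in WT and 2957.1, 3018.5 and 3066.0 in GαqKO, without overlap, so whether the total differed depended on the length. Per kb of transcript Cxcl12 made up 42.5% to 45.5% in WT and 3.8% to 4.0% in GαqKO, and Ccl25 15.5% to 20.8% and 31.5% to 34.3%.

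**Figure D2:**
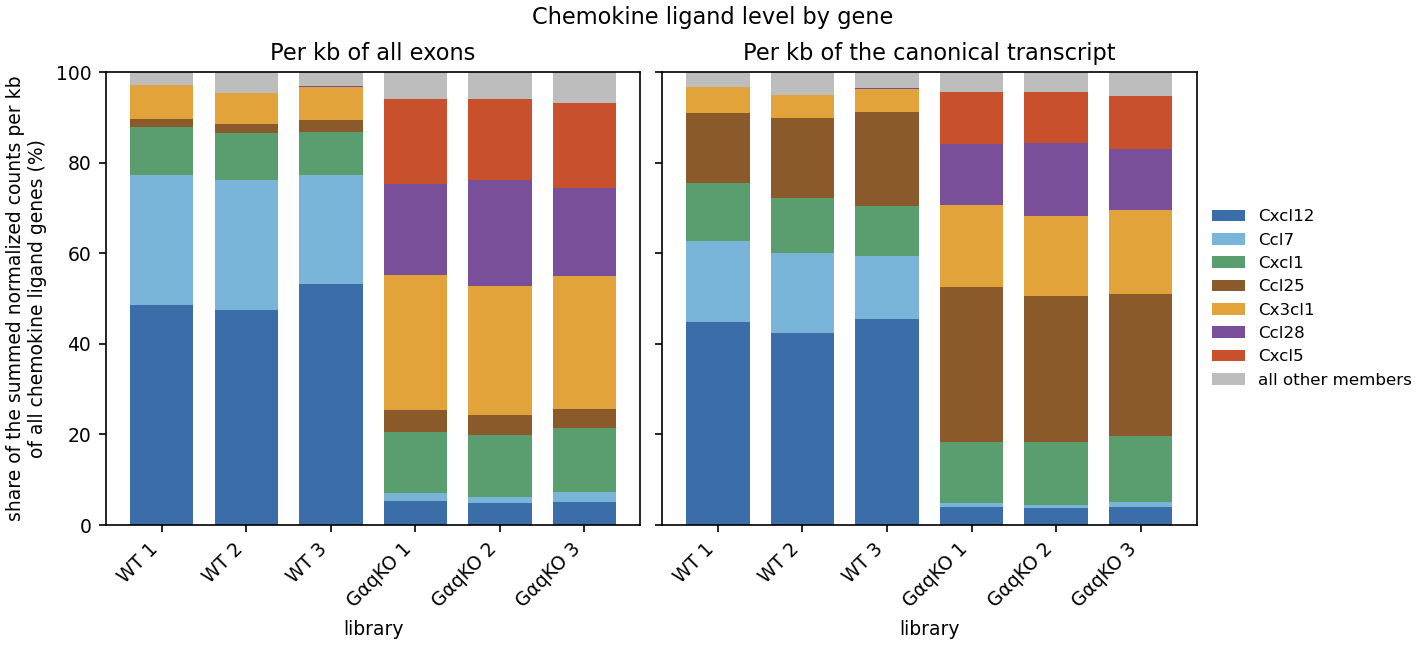
Share (%) of the summed normalized counts per kb of all 41 chemokine ligand genes that each of 7 genes and the rest took in each library, per kb of all exons (left) or of the canonical transcript (right). Cxcl12 takes 47.5% to 53.2% of the WT bars on the left and 42.5% to 45.5% on the right, and no more than 5.4% of any GαqKO bar.

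By position, 32 of the 41 members fell into 7 clusters of neighbouring genes whose starts lay less than 1 Mb apart, and 9 stood alone. In each cluster no more than a pair of genes passed the filter. On chromosome 5, Cxcl5, Cxcl3, Cxcl15, Cxcl1 and Cxcl2 lie within 146.6 kb, and 1 of the 5, Cxcl5, was called. Ppbp and Pf4, platelet chemokines of that region with symbols outside the pattern, stayed under the filter, Ppbp at 9.4, 6.8 and 7.1 against 9.4, 13.9 and 7.0 and Pf4 at 1.0 in WT replicate 1 and listed at 0 elsewhere. On chromosome 8, Ccl22, Cx3cl1 and Ccl17 lie within 67.4 kb, and Cx3cl1 alone passed the filter. Its neighbour Ccl17, a T cell attractant that starts 35.7 kb away, held 5.2, 7.8 and 2.0 against 5.6, 5.8 and 6.0 normalized counts.

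The CC genes of chromosome 11 form a pair of clusters. Ccl2, Ccl7, Ccl11, Ccl12, Ccl8 and Ccl1 lie within 270.1 kb, and Ccl7 was the 1 member tested, and lower. Ccl2, the principal monocyte attractant of fibroblasts, starts 10.1 kb from Ccl7 and was listed at 0 in all 6 libraries, as was Ccl12. Ccl8 (5.2, 9.7 and 4.1 against 4.7, 4.6 and 7.0) and Ccl11, the eosinophil attractant eotaxin (1.0, 2.9 and 4.1 against 0, 2.3 and 0), stayed under the filter in both groups. In the other cluster, within 138.9 kb, Ccl5 and Ccl9 were higher, Ccl6 and Ccl3 were listed at 0, and Ccl4 was above 0 only in WT replicate 3, at 1.0. On chromosome 4, Ccl27a was 1 of 8 members and the only one with any count, the other 7 being Ccl27b, Ccl19 and 5 copies of Ccl21 (Ccl21a, Ccl21b, Ccl21d, Ccl21e and Ccl21f).

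The interferon-induced ligands Cxcl9, Cxcl10 and Cxcl11, T cell attractants that share Cxcr3, were listed at 0 in every library, as were Xcl1, Cxcl13, Ccl24 and Cxcl17. Ccl20, Ccl22, Ccl26 and Cxcl14 were above 0 in a single library each, at 0.9 or 1.2, and Ccl1 ranged from 0 to 3.5. A listed 0 does not by itself show absence here. All 11 members with every exon base covered by the span of some other gene (Xcl1, Ccl6, Ccl3, Ccl21d, Ccl21f, Ccl21b, Ccl19, Ccl21a, Cxcl10, Cxcl11 and Cxcl17) were listed at 0, and so were 71.6% of the 1612 protein-coding genes in that position, against 25.1% of the 11540 protein-coding genes with no exon base covered in this way. The exons of other genes, unlike their spans, cover 0% of the exon bases of Ccl6, Ccl19, Ccl21a, Ccl21b, Ccl21d, Ccl21f and Cxcl17. They cover 5.9% for Cxcl10, 18.7% for Xcl1, 35.6% for Ccl3 and 41.7% for Cxcl11. Irf1 and Ifnar2, also at 100% by spans, were counted in every library, at 558.9 or more and 128.3 or more. How span overlap bears on the listed 0s was not tested. Ccl2, Ccl12, Ccl21e, Cxcl9, Cxcl13 and Ccl24 were listed at 0 although their exons lie in no other gene's span, and the exons of Ccl27b do so for 1.9% of their bases.

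**Figure D3:**
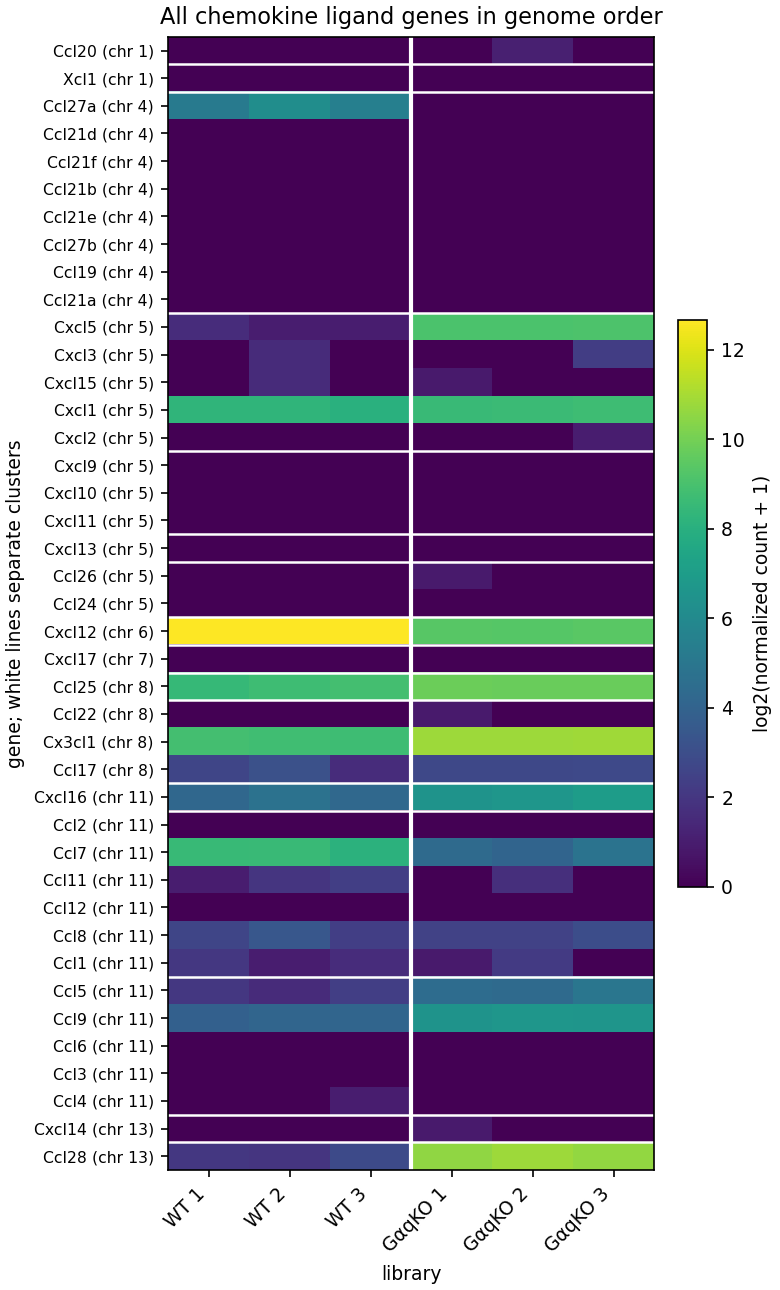
Log2(normalized count + 1), as colour, of all 41 chemokine ligand genes (rows, in genome order, with white lines between clusters) in the 3 WT and 3 GαqKO libraries (columns). The 18 rows that are dark throughout are listed at 0 in all 6 libraries. Within the clusters of chromosomes 5, 8 and 11, some genes differ between the groups, namely Cxcl5 and Cxcl1, Cx3cl1, Ccl7, and the neighbours Ccl5 and Ccl9.

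The receptors for these ligands were hardly counted in MEFs. None of the 18 signalling chemokine receptors passed the filter, and Ccr8, Cxcr6, Ccr2 and Ccr10 were listed at 0 in all 6 libraries. Cxcr6 and Ccr10 have 100% of their exon bases in the spans of other genes. What this overlap does to their counts was not tested, so their listed 0 is not read as absence. Cxcr4, the receptor of Cxcl12, held 4.2, 1.9 and 0 normalized counts in WT and was listed at 0 in GαqKO, and Cxcr2, the receptor of Cxcl1 and Cxcl5, held 1.0, 1.9 and 6.1 in WT and was listed at 0 in GαqKO. Cx3cr1, the receptor of Cx3cl1, held 14.6, 2.9 and 11.2 normalized counts in WT and 6.6, 6.9 and 2.0 in GαqKO, with overlap between the groups. Ccr1 was listed at 0 in WT and held 8.5, 6.9 and 10.1 in GαqKO, and Ccr4 held 0, 1.0 and 0 against 9.4, 12.7 and 8.1, all without a test. Of the 5 atypical and scavenging receptors, only Ackr3, which takes up Cxcl12 without G protein signalling, was tested. Its normalized counts were 58.5, 64.1 and 60.1 in WT and 102.4, 116.8 and 124.9 in GαqKO, with a log2 fold change of 0.90 (SE 0.154, limma adjusted p = 0.000156), under the fold threshold.

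Across the 66 other genes of the chemokine system that were listed, 35 were tested, 2 were called higher and 3 lower, beside 10.2% and 10.5% of all tested genes, with a median log2 fold change of -0.04 against -0.01 for all tested genes. Among the proteases that cut or shed chemokines, Mmp9 was the 1 called gene of 5 tested, at 5.2, 12.6 and 18.3 in WT and 245.1, 245.1 and 214.5 in GαqKO (log2 fold change 4.32, limma adjusted p = 4.83e-08). Adam10, which releases Cx3cl1 and Cxcl16 from resting cells, fell within the fold threshold from 3478.2, 3405.8 and 3303.9 to 2236.8, 2328.7 and 2357.5 (log2 fold change -0.56, limma adjusted p = 6.33e-08). Adam17, the protease of stimulated shedding, had a log2 fold change of -0.14 (limma adjusted p = 0.0414), Mmp2 one of -0.90 (limma adjusted p = 5.92e-09) and Mmp14 one of 0.06 (limma adjusted p = 0.26). Dpp4, which trims Cxcl12, was listed at 0, with 41.5% of its exon bases in the spans of other genes.

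Among 22 inducing cytokines and their receptors, 16 were tested and 3 were called, all lower, beside 20.7% of all tested genes called in either direction and 10.5% called lower. Il17ra, a subunit of the interleukin 17 receptor, held 1201.9, 1121.0 and 1118.6 normalized counts in WT and 16.9, 8.1 and 24.2 in GαqKO (log2 fold change -6.16, limma adjusted p = 1.48e-10). Il13ra1, a receptor subunit for interleukin 13, held 388.4, 434.2 and 386.8 against 39.4, 32.4 and 42.3 (log2 fold change -3.38, limma adjusted p = 8.92e-11), and Il1rn, the interleukin 1 receptor antagonist, 40.7, 60.2 and 42.7 against 23.5, 20.8 and 17.1 (log2 fold change -1.18, limma adjusted p = 0.00103). Il1b, Tnf, Ifnb1 and Ifng were listed at 0 in all libraries, and Il6 did not exceed 8.5. Il1b and Il6 have 100% of their exon bases in the spans of other genes and Ifng 25.9%. What this overlap does to their counts was not tested, so these values are not read as absence. By adjusted p alone 4 of the 16 were higher and 8 lower, beside 31.8% and 34.1% of all tested genes. The 4 higher genes were the receptors Il1r1 (log2 fold change 0.58, limma adjusted p = 1.92e-05), Il4ra (0.49), Tlr2 (0.36) and Tnfrsf1a (0.21). Besides the 3 called genes, the lower ones were Tnfrsf1b (log2 fold change -0.94, limma adjusted p = 1.62e-07) and, with smaller log2 fold changes, Ifngr2 (-0.35), Ifngr1 (-0.33), Ifnar1 (-0.24) and Tlr4 (-0.22).

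All 13 regulators of transcription and mRNA decay were tested. By adjusted p alone 7 were higher and 5 lower in GαqKO, beside 31.8% and 34.1% of all tested genes, and 1, Irf7, passed the fold threshold. Irf7, an interferon regulatory factor, was low at 5.2, 6.8 and 6.1 against 13.1, 17.3 and 30.2 (log2 fold change 1.52, limma adjusted p = 0.00355). It passed the filter only through the GαqKO libraries, so it had to differ. DESeq2 on the recovered reads of 5 libraries gave it an adjusted p of 0.192. The NF-κB subunits split, with Nfkb1 (0.67), Nfkb2 (0.41) and Relb (0.34) higher and Rel (-0.59) and Rela (-0.36) lower on the log2 scale. Zfp36, which promotes the decay of chemokine mRNAs such as Cxcl1, was lower (log2 fold change -0.49, limma adjusted p = 0.00438).

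**Figure D4:**
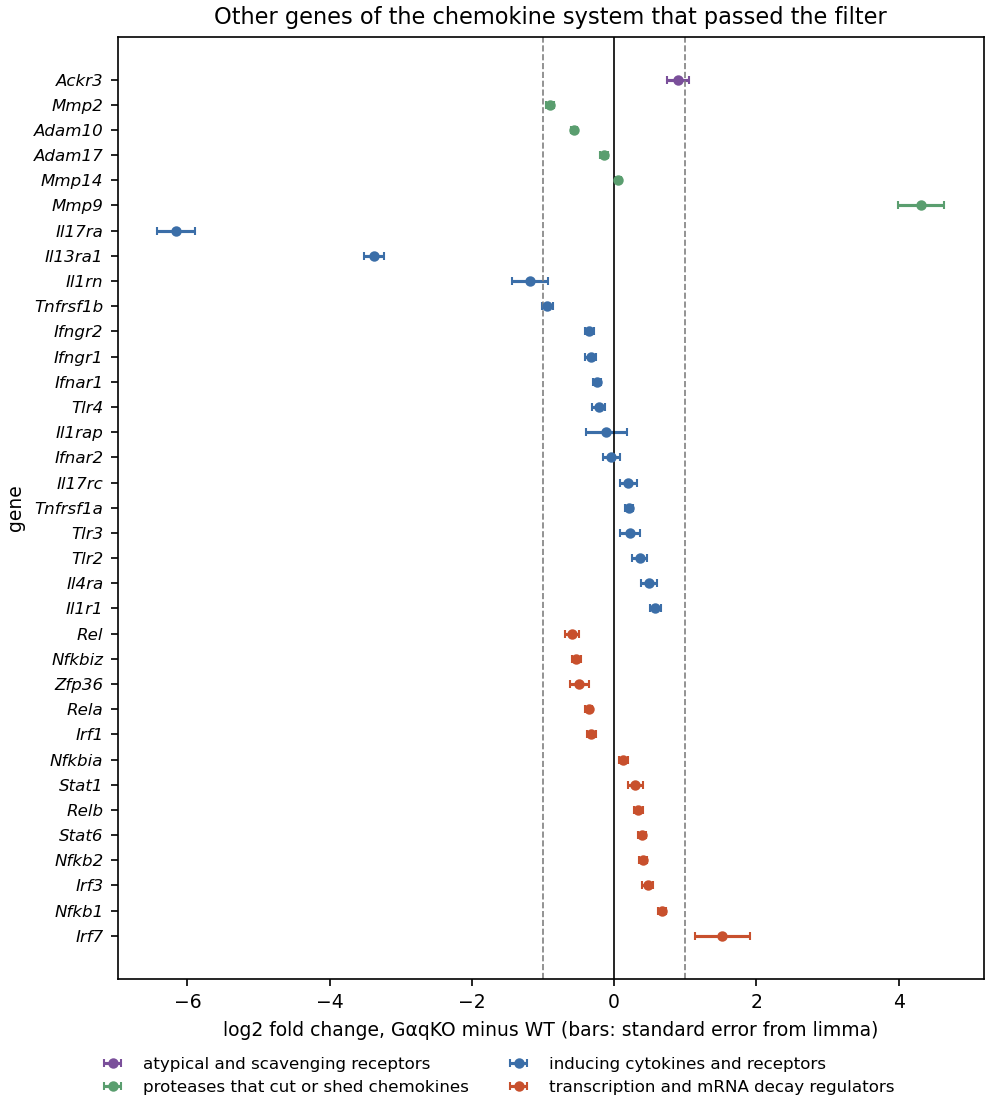
Log2 fold change (GαqKO minus WT, with standard errors from limma) of the 35 tested genes among 66 other genes of the chemokine system, coloured by list, with dashed lines at the fold threshold. Mmp9 (4.32) and Irf7 (1.52) lie to the right of the dashed lines and Il17ra (-6.16), Il13ra1 (-3.38) and Il1rn (-1.18) to the left, and all other genes lie between them.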

How the data were processed

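Poly-A selected paired-end libraries were aligned by the authors to GRCm39 with Rbowtie2 and counted per gene with featureCounts from Rsubread. The deposited values are a signal, namely normalized counts, each gene's count divided by 1 size factor per library. Tool versions, the strand setting and any filter were not given in the sources used here. Symbols, positions and lengths came from a later GENCODE release of the same build (56310 of 56953 identifiers matched). Genes with a normalized count of 10 or more in 3 or more libraries (14096) were tested with limma 3.58.1 in R 4.3.3 on log2(normalized count + 1), so fold changes of low genes are understated. P-values were Benjamini-Hochberg adjusted over all tested genes, and the study's thresholds were used (adjusted p under 0.05, log2 fold change beyond 1). Whole reads (100% of values within 0.1 read) were recovered for 5 libraries and tested with edgeR 4.0.16 and DESeq2 1.42.0. GαqKO replicate 3 was left out of this step, although 100% of its values also lay within 0.1 read. The members and gene lists were chosen with earlier results of these data known. All tested members were named, as were members under the filter or listed at 0, and of the other lists the called genes (up to 4 per list by fold change) and the gene with the highest mean over the 6 libraries, with further genes named after their values were seen. Alternatives covered scaling, filter, pseudocount, trend, replicate block and each library left out. Groups followed the labels. Structural classes were not derived from protein sequence, which was not used here, and are given as background. A gene of the receptor list is not reported here.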

Additional observations from a re-analysis of the deposited data

How the results depend on the processing

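No alternative reversed a direction. The count of chemokine ligands called higher was 7 and that of ligands called lower was 3 with TMM scaling, no filter, a pseudocount of 0.5 or 5, no trend, and with edgeR or DESeq2 on the recovered reads of 5 libraries, and the same 10 genes were called each time. With at least 10 normalized counts in every library, 4 ligands were called higher and 2 lower, so that 6 of the 10 calls remained. Ccl28, Cxcl5 and Ccl5, otherwise called higher, and Ccl27a, otherwise called lower, were then not tested. That filter left 831 of 12054 genes called higher and 765 lower. Leaving out 1 library at a time gave 6 to 7 ligands called higher and 3 lower, the 1 loss being Ccl25 without WT replicate 1. Other genes of the chemokine system called higher numbered 2, against 0 with at least 10 in every library and 6 without a filter. Irf7 lost its call with DESeq2 (log2 fold change 1.33, adjusted p = 0.192, against 0.0021 to 0.0329 under the other alternatives). The summed level of the ligands per kb, 1560.6 in WT and 1559.4 in GαqKO on average, was 2579.3 and 3013.9 with the length of the canonical transcript, a choice made after the lengths were seen. Replicate numbers did not pair the libraries, since deviations from the group means correlated at -0.045, -0.148 and -0.064 for libraries sharing a number and at -0.075 to 0.125 for the others. With the replicate number as a block, 7 ligands were called higher and 3 lower, the same 10 genes. Depth limits Ccl28, Cxcl5 and Ccl5 in WT, which rest on 12, 4 and 9 reads, and the ratios quoted for them leave out GαqKO replicate 3.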
